A study of Bos taurus with 4 samples.

Results

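The genes described here are DAB2, an endocytic adaptor, LRP2, CUBN and AMN, the receptors it is known to serve, CLTC and CLTA, the chains of the clathrin coat, and RAB11A, a GTPase of recycling endosomes. Members were all probes of the bovine embryo array EMBV3 whose symbol in the array's platform table is one of these 7 genes, and 17 of the 43794 probes met that rule. DAB2 had 4 of them, CLTA 8, CUBN 2, and AMN, CLTC and RAB11A 1 each. No probe was listed under LRP2 (21790 of the 43794 probes carry a symbol, and an unnamed probe for it is possible), so 6 of the 7 genes had a probe, among 15216 genes with a symbol on the array. The gene set was chosen with values from this contrast, the lower DAB2 intensity of vitrified pools, in view, so the members' differences are given as a description, with no test.

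The study asked how blastocysts differ in gene expression after their morulae had been cryopreserved by vitrification or by slow freezing. Vitrified pools came from morulae cooled on Cryotops in ethylene glycol and dimethyl sulfoxide by direct plunging into liquid nitrogen. Slow-frozen pools came from morulae held in glycerol and cooled in straws at a controlled rate before plunging. There were 4 pools of each group, 8 in all, and the labels give 7 blastocysts per pool and day 7 after fertilisation as the collection time. The methods allow fewer embryos, and place day 7 at the collection of the morulae, before freezing and further culture. Every pool held bovine embryos produced in vitro from abattoir oocytes and frozen as compact morulae, and only embryos that had reached the expanded blastocyst were pooled. RNA was amplified in successive rounds with T7 polymerase and labelled with Cy5 (replicates 1 and 2 of each group) or Cy3 (replicates 3 and 4). Blastocysts from unfrozen control morulae were not analysed here. All vitrified pools shared a slide with control pools and all slow-frozen pools shared a different slide with control pools, so slide and group cannot be told apart.

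Receptor-mediated endocytosis brings ligands such as lipoproteins and vitamin carriers into epithelial cells. LRP2 (megalin) and the pair of CUBN and AMN, together called cubam, bind the cargo, DAB2 links the receptors' tails to the coat, clathrin heavy and light chains build the coat, and RAB11A marks the endosomes that return receptors to the surface. In the mouse, Dab2 and these receptors are known from the visceral endoderm, an extraembryonic layer that feeds the early embryo. In the blastocyst the outer trophectoderm, an absorbing epithelium, surrounds the inner cell mass.

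The receptors of the set were hardly measurable in these pools. Signal was compared with a bound, set in each pool at percentile 95 of its 153 negative control spots, which came to 81 to 332 raw intensity units. The CUBN probe EMBV3_18708 gave 70, 101, 277 and 175 units in vitrified pools 1 to 4, against 131, 70, 183 and 174 in slow-frozen pools 1 to 4. All these values were below the bound of their pool, at 0.67 to 0.982 of it. The other CUBN probe, EMBV3_33362, lay at 0.538 to 0.753 of the bound. The AMN probe, EMBV3_15435, gave 73, 110, 339 and 218 units in vitrified pools and 161, 92, 205 and 170 in slow-frozen pools. It stood just above the bound in 2 vitrified and 2 slow-frozen pools, and reached at most 1.14 times it. A probe was tested only where it passed the bound in at least 3 of the 4 pools of a group, which left out CUBN and AMN, so no fold change is given for them. With no probe named LRP2, the label of an adaptor with its receptors holds here for the adaptor, the coat and RAB11A only.

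**Figure D1:**
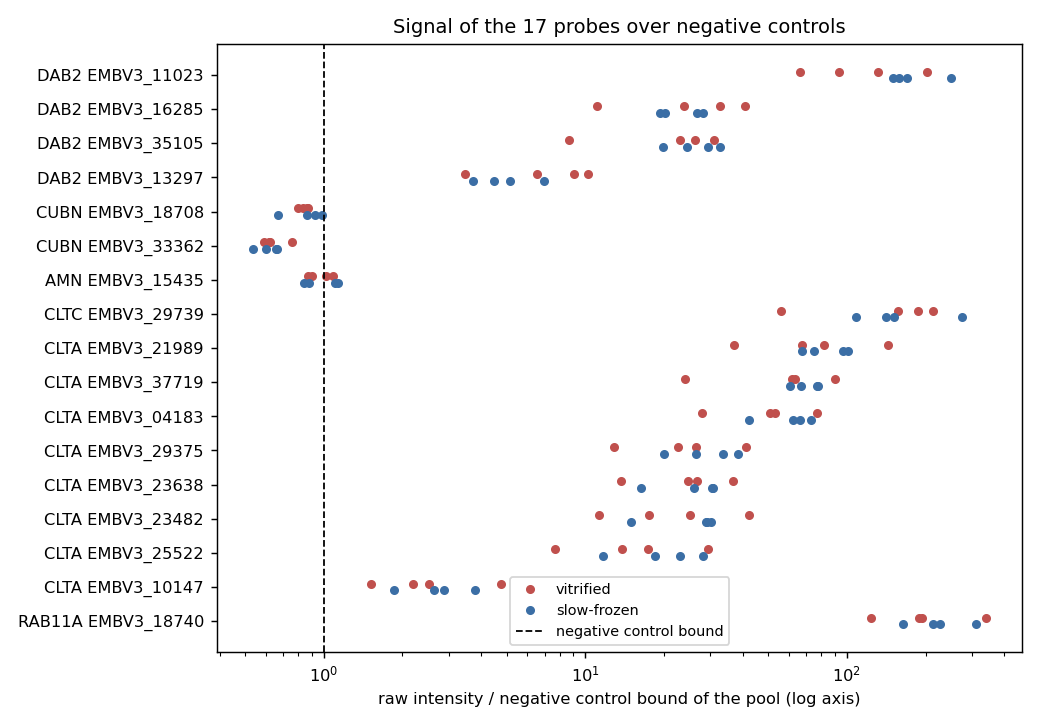
Raw intensity of each of the 17 probes divided by the negative control bound of the same pool, on a log axis, with vitrified pools (red) drawn above slow-frozen pools (blue) and the bound as a dashed line. Both CUBN probes lie below the bound, at 0.538 to 0.982 times it, and AMN lies on either side of it, at 0.839 to 1.14 times. Every probe of DAB2, CLTC, CLTA and RAB11A is above the bound in all 8 pools.

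The other 14 probes, of 4 genes, were above the bound in all 8 pools. RAB11A reached 123 to 340 times the bound, CLTC 56.1 to 276 times, and the brightest DAB2 probe 66.3 to 251 times, while the dimmest CLTA probe began at 1.51 times. No member probe was saturated. The values that follow are log2 intensities after background correction and normalisation, and each difference is vitrified minus slow-frozen with the standard error (SE) of the limma fit.

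DAB2 was represented by 4 probes that did not move alike. The brightest, EMBV3_11023, had log2 intensities of 14.08, 14.04, 14.24 and 14.06 in vitrified pools 1 to 4, against 14.44, 14.80, 14.79 and 15.17 in slow-frozen pools 1 to 4. All 4 vitrified pools lay below all 4 slow-frozen pools, and the vitrified pools were also closer to each other. The means were 14.10 ± 0.09 in vitrified pools and 14.80 ± 0.30 in slow-frozen pools (SD, n = 4 each), a difference of -0.70 ± 0.15 (SE), or 1.62-fold lower after vitrification. The difference was -0.56 between pools labelled with Cy5 and -0.83 between pools labelled with Cy3.

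The next DAB2 probe, EMBV3_16285, did not share that gap. It had 11.86, 12.11, 11.65 and 11.89 in vitrified pools and 11.66, 11.75, 11.74 and 12.26 in slow-frozen pools. The groups overlapped, and slow-frozen pool 4 was the highest of the 8. The difference was 0.03 ± 0.17, with 0.28 between Cy5 pools and -0.23 between Cy3 pools.

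EMBV3_35105 had 11.20, 11.59, 11.29 and 12.27 in vitrified pools, against 11.62, 11.80, 12.46 and 12.13 in slow-frozen pools. Vitrified pools 1 to 3 were below every slow-frozen pool, and vitrified pool 4 was above 3 of them. The difference was -0.42 ± 0.21, with -0.20 without vitrified pool 3 and -0.59 without vitrified pool 4. The dimmest probe, EMBV3_13297, ran in the other direction, with 9.95, 10.28, 9.85 and 9.93 in vitrified pools and 10.12, 8.91, 9.54 and 9.88 in slow-frozen pools. Its difference of 0.39 ± 0.24 drew on the low value of slow-frozen pool 2, and without that pool it was 0.10, while without slow-frozen pool 1 it was 0.59. Of the 4 probes of DAB2, then, 2 had a lower and 2 a higher mean in vitrified pools.

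**Figure D2:**
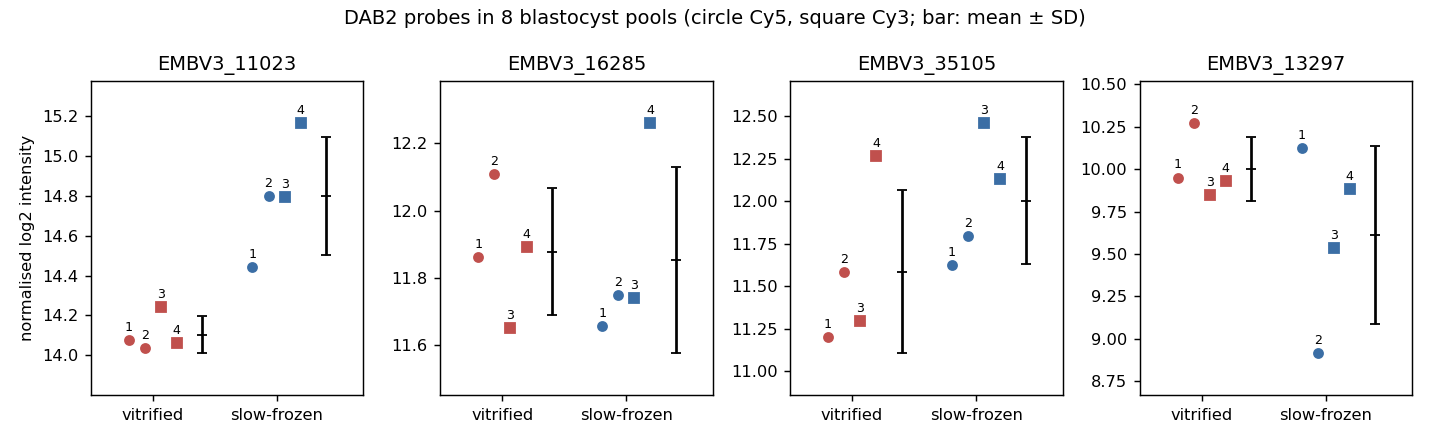
Normalised log2 intensity of the 4 DAB2 probes in vitrified (left, red) and slow-frozen (right, blue) pools, numbered by replicate, with circles for Cy5, squares for Cy3 and bars for the mean ± SD of 4 pools. The groups are apart for EMBV3_11023 only, and overlap for the other 3 probes, whose axes differ in range.

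These are bulk pools, in which fewer cells of a type and less RNA per cell cannot be told apart. Markers of the trophectoderm had a lower mean log2 level in vitrified pools, with equal weight for each gene, dim or bright. Of 19 trophectoderm genes, 17 were lower, with a median difference of -0.28, while 47.7% of all genes were lower. Their mean log2 level was 10.00 to 10.30 in vitrified pools against 10.33 to 10.57 in slow-frozen pools, with no overlap. The gap was narrow, from 10.296 to 10.335, and the groups overlapped in every single gene of this list. PTGS2 had the largest difference, -1.22. The paper had already reported PTGS2 as downregulated after vitrification, against unfrozen controls and not against slow-frozen pools. The list was chosen with earlier results known. Whether the gap holds without PTGS2 or other single genes was not tested, so nothing is read from it. No trophectoderm marker was below the bound in every pool. Of 8 inner cell mass genes, 7 were higher, with a median of 0.32. Their mean levels were 10.91 to 11.16 in vitrified pools against 10.53 to 10.81 in slow-frozen pools, again with no overlap. No marker of either list passed the limma adjustment. Among the inner cell mass genes the groups were apart in 2, SPIC (0.81) and PRDM14 (0.68), while NANOG differed by -0.08 ± 0.74. The inner cell mass list too was chosen with earlier results known, and nothing is read from it. Hypoblast markers overlapped, at 10.82 to 10.98 in vitrified pools and 10.58 to 11.17 in slow-frozen pools. The listed regulators GATA6, SOX17 and FOXA2 were not among the 10 genes measured. Of those 10, 6 were lower and 4 higher, from -0.93 (APOA1) to 0.83 (PDGFRA). Markers of cumulus or granulosa cells (7.83 to 8.01 in vitrified and 7.84 to 8.16 in slow-frozen pools) and of blood cells (8.10 to 8.42 and 8.05 to 8.36) overlapped too. Of 8 cumulus or granulosa genes measured, 7 were lower and 1 higher, with a median of -0.07. A high share of lower genes was thus not particular to the trophectoderm list. Of 7 blood cell genes measured, 3 were lower and 4 higher. In these lists only AMH and ITGAM were below the bound in every pool. Above it in all 8 pools were 4 of 12 cumulus or granulosa genes and 6 of 8 blood cell genes. The part of these markers in the DAB2 values was not tested.

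CLTC, the clathrin heavy chain, which forms the legs of the coat's three-legged unit, was read by EMBV3_29739. Its values were 14.17, 14.54, 14.00 and 14.96 in vitrified pools and 14.47, 14.90, 14.19 and 14.95 in slow-frozen pools. Pools 2 and 4 of either group were the highest, and the groups overlapped over most of their range. The means were 14.42 ± 0.43 in vitrified and 14.63 ± 0.36 in slow-frozen pools (SD, n = 4 each), with a difference of -0.21 ± 0.24. The spread within groups was wide, at percentile 90.9 of all probes tested, and the difference was -0.04 without vitrified pool 3 and -0.43 without vitrified pool 4.

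CLTA, a clathrin light chain, which regulates the assembly of the coat, had 8 probes, and all 8 had a lower mean in vitrified pools. The differences ran from -0.42 to -0.12, with a median of -0.29, and the groups overlapped in every probe. The 8 probes read the same gene in the same pools and are not independent. The brightest, EMBV3_21989, had 13.64, 13.40, 13.39 and 13.50 in vitrified pools, against 13.87, 13.56, 13.67 and 13.67 in slow-frozen pools. Vitrified pool 1 alone was above the lowest slow-frozen pool, and the difference was -0.21 ± 0.14. EMBV3_37719 had the largest difference of the 8, -0.42 ± 0.17, with 12.97, 13.01, 12.75 and 13.37 in vitrified pools and 13.55, 13.22, 13.37 and 13.65 in slow-frozen pools.

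In most of the other CLTA probes slow-frozen pools 1 and 3 were the highest of the 8. EMBV3_29375 had 11.84, 11.79, 11.85 and 11.83 in vitrified pools, against 12.42, 11.66, 12.70 and 11.85 in slow-frozen pools. The vitrified pools were almost level (SD 0.03), while the slow-frozen pools split into high pools 1 and 3 and low pools 2 and 4 (SD 0.49). The difference was -0.33 ± 0.22, with -0.14 without slow-frozen pool 3 and -0.50 without slow-frozen pool 2. EMBV3_25522 had the same split, with 11.37, 11.20, 11.11 and 11.09 in vitrified pools and 11.86, 11.19, 12.25 and 11.07 in slow-frozen pools. Its difference of -0.40 ± 0.25 became -0.13 without slow-frozen pool 3 and -0.60 without slow-frozen pool 4.

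EMBV3_23482 had 11.90, 11.73, 11.67 and 11.46 in vitrified pools, against 12.25, 11.81, 12.32 and 11.43 in slow-frozen pools. Here too slow-frozen pools 1 and 3 were the highest of the 8, and the difference was -0.26 ± 0.20, or -0.07 without slow-frozen pool 3 and -0.43 without slow-frozen pool 4. Slow-frozen pools 1 and 3 also led EMBV3_23638, whose difference of -0.12 ± 0.21 turned to 0.05 without slow-frozen pool 1 and was -0.31 without slow-frozen pool 4. They led EMBV3_04183 as well, with a difference of -0.31 ± 0.16 that was -0.20 without slow-frozen pool 1 and -0.43 without slow-frozen pool 4. The dimmest probe, EMBV3_10147, ranged between 8.32 and 8.89 in vitrified pools and between 8.38 and 9.23 in slow-frozen pools, a difference of -0.21 ± 0.21. It was -0.01 without slow-frozen pool 3 and -0.35 without slow-frozen pool 4.

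RAB11A, which steers recycling endosomes to the cell surface, was read by EMBV3_18740. It had 14.76, 14.58, 15.15 and 15.32 in vitrified pools and 15.00, 15.04, 15.11 and 15.21 in slow-frozen pools. Vitrified pools 1 and 2 were the lowest of the 8 and vitrified pool 4 the highest, so the slow-frozen values lay inside the vitrified range. The means were 14.95 ± 0.34 in vitrified and 15.09 ± 0.09 in slow-frozen pools (SD, n = 4 each), and the difference was -0.14 ± 0.15. It was -0.06 without vitrified pool 2 and -0.22 without vitrified pool 4. It was -0.35 between Cy5 pools and 0.08 between Cy3 pools, so its sign differed between the dyes.

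**Figure D3:**
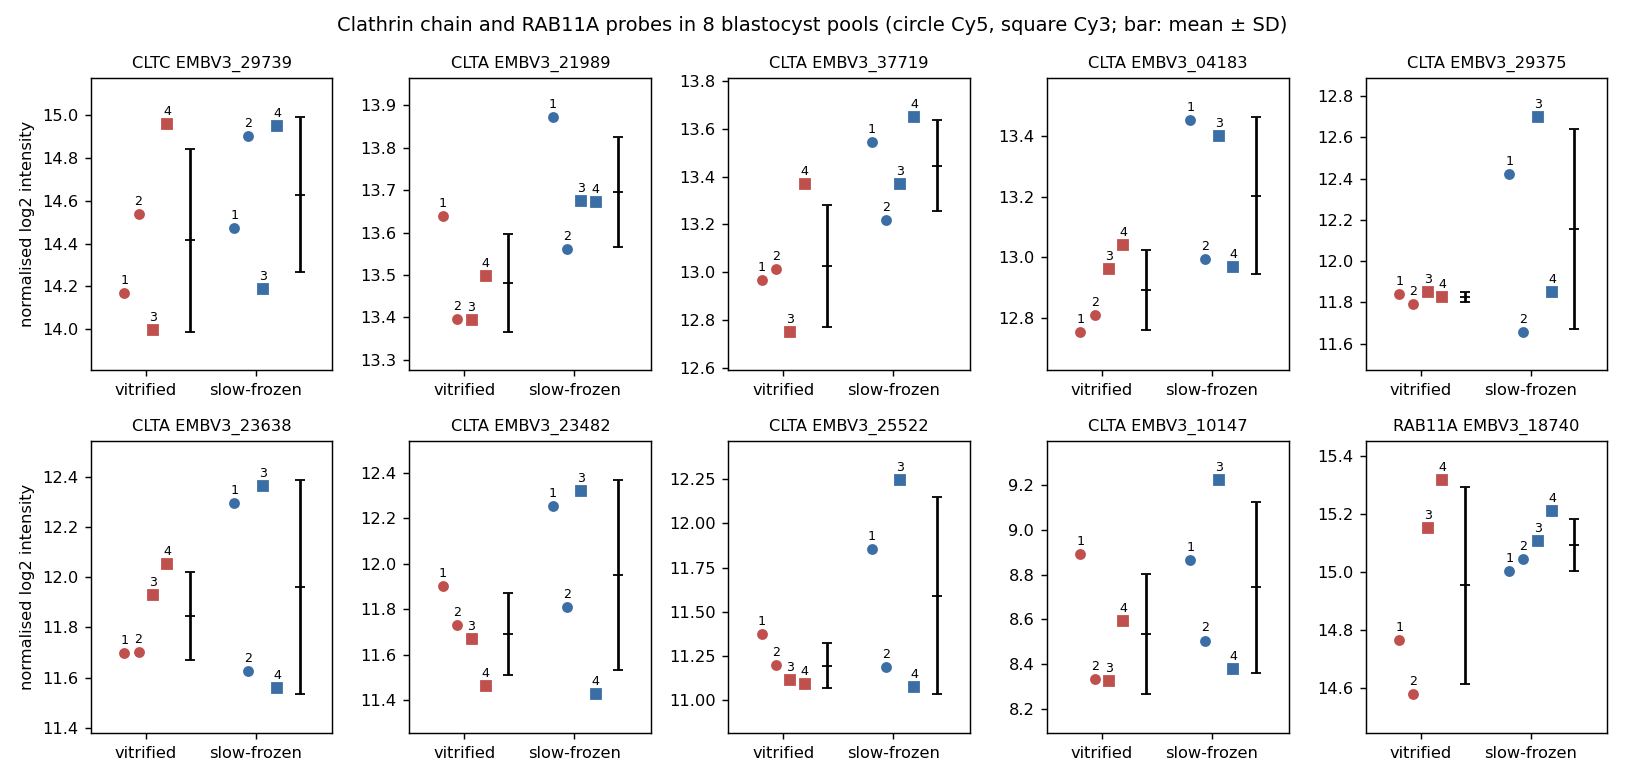
Normalised log2 intensity of the CLTC probe, the 8 CLTA probes and the RAB11A probe in vitrified (left, red) and slow-frozen (right, blue) pools, numbered by replicate, with circles for Cy5, squares for Cy3 and bars for the mean ± SD of 4 pools. Slow-frozen pools 1 and 3 are the highest of the 8 pools in 6 of the CLTA probes, though in EMBV3_21989 pool 3 (13.674) is barely above slow-frozen pool 4 (13.671), and CLTC is highest in pools 2 and 4 of both groups.

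Across the 14 probes tested, 12 had a lower and 2 a higher mean in vitrified pools, and the median difference was -0.24. Among all 30034 probes the median was 0.01 and 48.6% were lower. Separate groups were seen in 1 of the 14, DAB2 EMBV3_11023, and in 2.47% of all probes (0.986% with vitrified lower). No member probe passed the Benjamini-Hochberg adjustment of limma, which 0.00333% of all probes did (1 probe). Neither did any pass the study's thresholds, a fold of at least 2 with an unadjusted p under 0.05, which 0.19% of all probes did (57 probes). Since this contrast proposed the members, nothing is read from these counts.

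**Figure D4:**
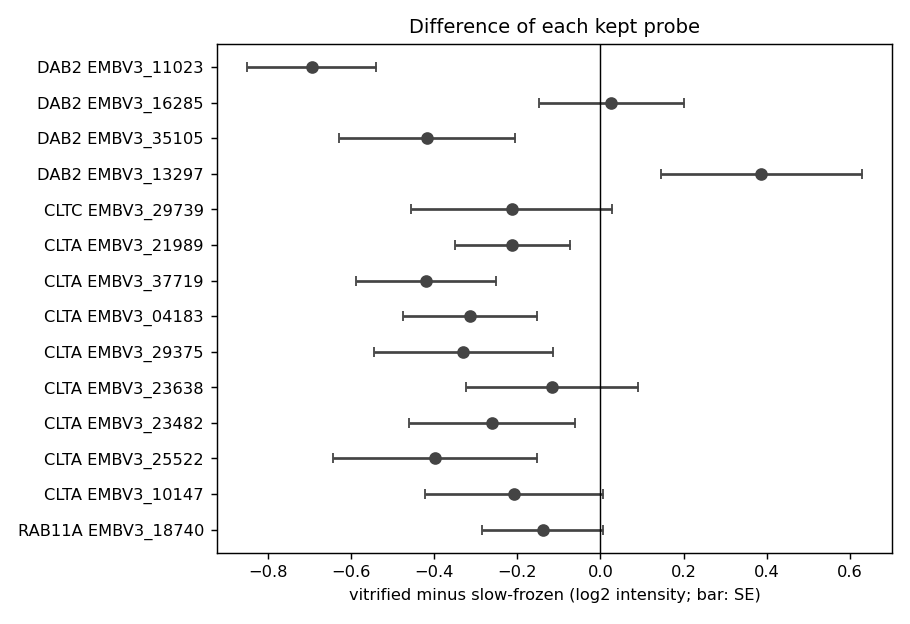
Difference of each of the 14 probes tested, vitrified minus slow-frozen, in log2 intensity, with bars for the SE of the limma fit. The points lie between -0.70 (DAB2 EMBV3_11023) and 0.39 (DAB2 EMBV3_13297), and all 8 CLTA probes lie below 0.

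The dye contrast was not used to choose the members and could be tested. Between Cy5 and Cy3 pools, 2 of the 14 probes had an unadjusted p under 0.05 in limma, against 7.28% of all probes tested. They were RAB11A EMBV3_18740, with Cy5 lower by -0.35 ± 0.15 (limma adjusted p = 0.649), and DAB2 EMBV3_35105, with Cy5 lower by -0.49 ± 0.21 (limma adjusted p = 0.665). None of the 14 passed the adjustment, which 0.0466% of all probes did. Each group held 2 pools of either dye, so the dye does not run with the group. Cy5 pools were replicates 1 and 2 and Cy3 pools replicates 3 and 4 in both groups, so dye and replicate set cannot be told apart in this contrast.

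Whether probes of one gene vary together was asked over the 8 pools, in 34 pairs of probes with exact permutation tests (two-sided, all orders of the pools). None of the 6 DAB2 pairs passed. Their Pearson's r ran from -0.53 to 0.52 with a median of 0.22, and Spearman's rho from -0.67 to 0.40. The smallest exact p for r was 0.18, and the values adjusted over the 34 pairs were 0.258 to 0.628. Without the 2 pools farthest from the median, r ran from -0.68 to 0.53.

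The 28 CLTA pairs were all positive in r, at 0.088 to 0.957 with a median of 0.68, while rho ran from -0.10 to 0.98. With group and dye means removed, 26 of the 28 pairs were positive in r, which ran from -0.30 to 0.98. After adjustment 1 pair passed, EMBV3_23482 with EMBV3_25522. Its r was 0.930 (exact permutation p = 7.44e-05, adjusted p = 0.00253) and its rho 0.976 (exact permutation p = 0.000397, adjusted p = 0.0135). Without the 2 pools farthest from the median its r was 0.876, and with group and dye means removed it was 0.972. Over all 28 pairs r without such pools ran from -0.83 to 0.92, so for some pairs the likeness rested on those pools.

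The genes whose pattern over the 8 pools was most like DAB2 EMBV3_11023, by Pearson's r among the brightest probes of 11727 other genes, were LGALS9 (0.976), VPS35 (0.960), CCND2 (0.957), CLMN (0.954) and B4GALT3 (0.942). LGALS9 encodes galectin-9, a sugar-binding protein, VPS35 the core of the retromer, which retrieves receptors from endosomes, and CCND2 the cell cycle regulator cyclin D2. In VPS35 the vitrified pools had 13.28, 13.14, 13.24 and 13.25, against 13.46, 13.51, 13.67 and 13.94 in slow-frozen pools, and the difference was -0.42 ± 0.14. Slow-frozen pool 4 was the highest and slow-frozen pool 1 the lowest of the slow-frozen pools, as for DAB2. The groups were apart for all 5 genes, which the choice by likeness to a probe with separate groups makes likely (0.986% of all probes were apart with vitrified lower), so nothing is read from it.

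The order changed once group and dye means were removed. Then LGALS9 alone of the 5 stayed among the 5 highest, at rank 3, while VPS35 was at rank 266. The LGALS9 probe was dim, with log2 intensities of 7.67 to 8.14, not far above the AMN probe (6.93 to 7.46). Other probes of LGALS9 had r of 0.24 to 0.37 with DAB2, and those of VPS35 and B4GALT3 had -0.25 and -0.03. The brightest probes of CLTA (r = 0.446), RAB11A (0.433) and CLTC (0.343) ranked 1385, 1481 and 2188 among the 11727 genes.

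Other genes of the pathway were taken from 6 lists, with 178 genes, of which 165 were on the array and 147 were measured, each by its brightest probe. None passed the adjustment of limma over all probes. At an unadjusted p under 0.05, 9 were lower and 5 higher in vitrified pools, 14 in all, or 9.52% of the 147, against 5.93% of all 11728 genes (2.99% lower and 2.94% higher). The median difference over the 147 was -0.03, against 0.01 over all genes, with 77 lower and 70 higher.

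Among 21 cargo receptors the median was 0.06, with 9 lower and 12 higher. M6PR, a receptor that carries lysosomal enzymes, had 12.17, 12.09, 12.06 and 12.07 in vitrified pools, against 12.25, 12.64, 12.40 and 12.44 in slow-frozen pools. The groups were apart, with a difference of -0.33 ± 0.14, but its other probes gave -0.09 and 0.18. SORL1, a sorting receptor of the LDL receptor family, differed by 0.53 ± 0.27, with 0.04 and 0.0035 in its other probes. FCGRT, the neonatal Fc receptor, differed by -0.31 ± 0.16, with -0.08 in its other probe. SORL1 was 0.33 without slow-frozen pool 4 and 0.86 without slow-frozen pool 3, and FCGRT was -0.20 without vitrified pool 3.

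Among 26 endocytic adaptors and coat initiators, the class of DAB2 itself, the median was 0.04, with 9 lower and 17 higher. AP2S1, the small subunit of the plasma membrane adaptor AP-2, differed by -0.39 ± 0.15, and its other probe by -0.35. AP2A1, a large subunit of AP-2, differed by -0.34 ± 0.18, and ARRB2, an arrestin that links activated receptors to clathrin, by 0.43 ± 0.19. Without vitrified pool 3 the ARRB2 difference was 0.23, and without slow-frozen pool 2 that of AP2A1 was -0.21. Of the 17 other clathrin chains and Golgi or endosome adaptors, 9 were lower and 8 higher, with a median of -0.02. They held subunits of the Golgi and endosome adaptor AP-1, AP1B1 at -0.28 ± 0.16, AP1S3 at 0.36 ± 0.21 and AP1S2 at 0.25 ± 0.19. Without slow-frozen pool 1 these were 0.18 for AP1S3 and 0.13 for AP1S2, and AP1B1 was -0.17 without vitrified pool 3.

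Among 15 genes of vesicle scission, uncoating and actin motors, 8 were lower and 7 higher, with a median of -0.03. WASL, which starts actin branching at the membrane, had 8.62, 8.25, 8.05 and 9.05 in vitrified pools, against 9.29, 9.53, 9.06 and 9.10 in slow-frozen pools. Its highest vitrified pool came just under its lowest slow-frozen pool, and the difference was -0.75 ± 0.22 (limma adjusted p = 0.817), while its other probe gave 0.06. SH3GLB1, a membrane-bending protein, was apart in the other direction, at 0.49 ± 0.15, with 0.02 in its other probe. PACSIN3, which binds dynamin, differed by -0.58 ± 0.22.

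Of 30 genes of early and late endosomes, 17 were lower and 13 higher, with a median of -0.07. VPS4A, an ATPase that takes the ESCRT machinery apart, had 11.04, 11.07, 10.95 and 10.93 in vitrified pools and 11.36, 11.57, 11.34 and 11.65 in slow-frozen pools. The groups were apart, with a difference of -0.48 ± 0.14 (limma adjusted p = 0.814). APPL2, an adaptor on early endosomes, differed by 0.44 ± 0.14 with the groups apart, and VPS39, a tethering subunit, by -0.52 ± 0.18.

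Of 38 genes of endosomal recycling, the step of RAB11A, 25 were lower and 13 higher, with a median of -0.12. VPS35, described above, was among them, and its other probe gave -0.08. RAB13, a GTPase of recycling to tight junctions, differed by -0.49 ± 0.17, and SNX1, a sorting nexin, by 0.46 ± 0.17, with -0.18 in its other probe.

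**Figure D5:**
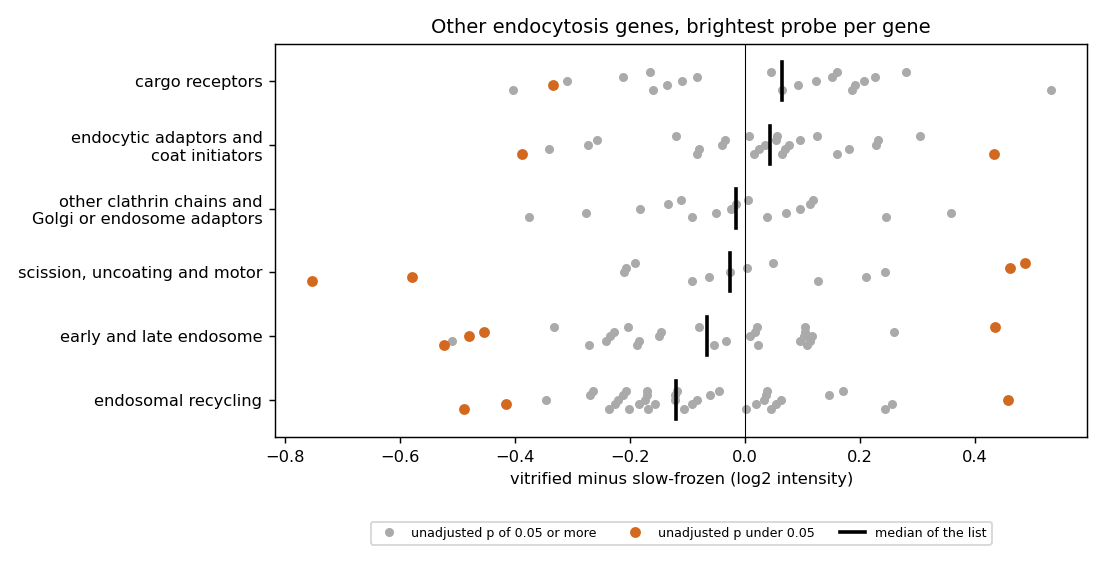
Difference of each measured gene of the 6 lists, vitrified minus slow-frozen, in log2 intensity, with the median of each list as a black bar and genes with an unadjusted p under 0.05 in orange. The medians run from -0.12 for endosomal recycling to 0.06 for cargo receptors, and points lie on both sides of 0 in every list.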

How the data were processed

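Gene expression was measured in 8 blastocyst pools on the 2-colour array EMBV3. The authors read spots with Array-Pro, and the deposited intensity columns give, for each channel, the median of the spot and that of its surroundings, before any background subtraction. In the 4 deposited files a vitrified channel stands beside a slow-frozen one. According to the methods, each had been hybridised with a control on a different slide, and they were compared in silico. A file therefore does not stand for a shared hybridisation. The deposited value table holds log2 ratios, which matched log2 of Cy5 over Cy3 in each file (r of at least 0.9999), and it served as an alternative. Group, replicate and dye came from the sample labels. Replicates were separate pools of embryos according to labels and methods.

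Intensities were corrected by normexp (offset 50), then normalised by loess inside each file (control spots had weight 0) and by quantiles over the 8 channels. Of 43794 probes, 30034 passed the negative control bound in at least 3 of 4 pools of a group and 13760 were left out, among them 58 with ignored spots. Median raw intensity was 109 to 384 per pool, and 63.3% to 74.1% of probes were above the bound. The number of arrays limits the precision.

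The comparison of groups used limma 3.58.1 (R 4.3.3), with the dye as a term and Benjamini-Hochberg adjustment over all probes tested. Correlations used Python 3.11.15 and scipy 1.17.1. Alternatives changed the background correction, the loess and quantile steps, the filter, the dye term, blocks and single pools. Symbols came from the platform table (21790 probes), and 1524 were updated through the reference gene table to match the lists. The members and lists were chosen with earlier results of these data known. Genes were named by a rule: all member probes, the 3 genes with the smallest p in each list, genes past the adjustment or a fold of 2, and the 5 genes most like the brightest DAB2 probe.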

Additional observations from a re-analysis of the deposited data

Results flagged for a closer look

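DAB2 EMBV3_16285 in slow-frozen pool 4 had a log2 intensity of 12.26, set apart from the other slow-frozen pools, the nearest of which had 11.75. The gap made up 0.847 of the group's range, above Dixon's 95% critical value for 4 samples. It was 1 of 28 groups examined, and chance gives about 1 in 20. Without that pool the difference of this probe was 0.18, against 0.03 with all pools.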

How the results depend on the processing

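The difference of DAB2 EMBV3_11023 was -0.70 to -0.69 under the alternatives that can move it (background correction, loess, quantile step, value table) and lay between -0.79 and -0.59 when single pools were left out. DAB2 EMBV3_16285 had no stable sign, at -0.003 to 0.03 under the same alternatives and -0.07 to 0.18 without single pools. The added comparison within dyes was chosen after seeing the data and gave RAB11A -0.35 in Cy5 and 0.08 in Cy3 pools.

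Over all probes, 1 passed the adjustment in the fit reported. None did without loess or with the authors' value table (0 each), and 0 to 1 did without single pools. The count at an unadjusted p under 0.05 was 1444. It was 841 without quantile normalisation, 2709 with a random block for the deposited file (correlation 0.312), 2220 with the value table, and 870 to 1787 without single pools. The study's thresholds passed 57 probes, and 32 to 103 without single pools. The 14 list genes at an unadjusted p under 0.05 became 6 without quantile normalisation, 22 with the file block and 8 to 14 without single pools. None of them passed the adjustment in any of these. The 2 member probes with a dye difference became 1 with plain background subtraction, 0 without quantile normalisation, 1 with the value table and 0 to 2 without single pools. Of the 5 genes most like DAB2, 1 remained with group and dye means removed. The cause of these shifts was not tested.

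With the replicate number as a block, 0 probes passed the adjustment. Same-numbered pools deviated from their group means with correlations of 0.16, 0.09, -0.03 and 0.09. The fit reported has no block, since the labels do not say whether a number marks a production cycle. The methods took 1 tube per treatment from each cycle, so a shared cycle remains possible. With the block the SE of CLTC was 0.14, against 0.24 without it. Low signal limits CUBN and AMN, which stayed near the negative controls in every pool.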
